A study of Mus musculus with 6 samples.

Results

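Fibroblast growth factor (FGF) signaling was examined through 10 genes in the E13.5 mouse cortex, the embryonic stage when cortical neurogenesis is under way. They were the receptors Fgfr1, Fgfr2 and Fgfr3, the ligand Fgf15, and the genes Spry1, Spry2, Spred1, Dusp6, Etv4 and Etv5, which are induced by the ERK kinase cascade or restrain it. The genes were chosen by symbol, as 10 of the 17348 genes in the expression table, and all 10 were among the 13340 genes with enough counts to be tested. RNA-seq had been performed on dissected cortex of 3 WT and 3 Ybx1 cKO embryo samples. The cKO genotype was Nestin-Cre with Ybx1 fl/fl, in which a block of Ybx1 coding exons is removed. The controls were labeled WT, and the study names Ybx1 fl/fl littermates without Cre as its controls and calls the sequenced ones wild type littermates. Nestin-Cre acts in neural progenitors and the cells that descend from them, so meninges, vessels and blood in the tissue may keep Ybx1. Ybx1 was not measured by cell type. Whether a library held 1 embryo or a pool was not given, and p-values therefore measure the spread between these samples.

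FGF receptors are tyrosine kinases at the cell surface that pass the signal through adaptors to RAS, RAF, MEK and ERK. ERK in turn activates ETS transcription factors such as Etv4 and Etv5, and it induces its own inhibitors: the Sprouty and Spred proteins act on the RAS and RAF steps, and Dusp6 removes the activating phosphates from ERK. In the embryonic cortex this pathway is known for patterning the rostral to caudal axis and for keeping radial glia, the cortical stem cells, in a proliferating state. The levels of Spry, Dusp6 and Etv transcripts are widely read as a record of ERK activity, since their transcription follows it.

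The genes lie on separate mouse chromosomes except for Fgfr2 and Fgf15, which are both on chromosome 7 (RefSeq annotation of GRCm38.p6). Fgfr3 spans chr5:33721724-33737068 on the plus strand, Spry2 chr14:105891947-105896819 on the minus strand and Dusp6 chr10:99263231-99267489 on the plus strand. In the GENCODE annotation of the same build, exons of Fgfr1, Fgfr3, Fgf15 and Spry1 overlap with a gene on the opposite strand and those of Fgfr2 with Ctbp2 on the same strand, and whether counting used strand was not given, so reads of these 5 genes could be shared with their neighbors. Spry2, Etv4, Etv5, Dusp6 and Spred1 have no such overlap. The 250 bases before the transcription start are shown for the only genes whose genotypes did not overlap, Spry2 and Fgfr3, and for Dusp6, the ERK phosphatase, written 5′ to 3′ on the strand of the gene, with the letters GGAAG or, on the other strand, CTTCC in capitals.
Spry2 (chr14:105896820-105897069, minus strand): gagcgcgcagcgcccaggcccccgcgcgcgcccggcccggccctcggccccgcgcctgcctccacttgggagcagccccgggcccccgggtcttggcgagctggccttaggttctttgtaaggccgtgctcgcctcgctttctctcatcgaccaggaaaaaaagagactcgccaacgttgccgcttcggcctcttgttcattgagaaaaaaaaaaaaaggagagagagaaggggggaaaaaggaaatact
Fgfr3 (chr5:33721474-33721723, plus strand): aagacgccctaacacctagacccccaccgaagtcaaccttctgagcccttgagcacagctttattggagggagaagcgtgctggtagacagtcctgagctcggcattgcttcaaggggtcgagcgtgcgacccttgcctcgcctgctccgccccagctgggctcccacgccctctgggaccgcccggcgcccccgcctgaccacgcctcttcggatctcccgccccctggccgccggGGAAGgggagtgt
Dusp6 (chr10:99262981-99263230, plus strand): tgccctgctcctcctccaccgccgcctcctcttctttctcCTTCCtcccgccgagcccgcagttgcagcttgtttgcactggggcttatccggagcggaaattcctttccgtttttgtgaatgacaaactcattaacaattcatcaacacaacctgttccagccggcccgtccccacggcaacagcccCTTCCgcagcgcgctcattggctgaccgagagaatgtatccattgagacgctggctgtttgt
GGAAG is 1 form of the sites that ETS factors such as Etv4 and Etv5 bind. The window of Spry2 held 0 matches, although the shorter GGAA core, which was not counted, occurs in it. The printed window of Fgfr3 held 1 match, and the window of a second RefSeq start of Fgfr3, not shown, held 3. That of Dusp6 held 2. RefSeq promoters were matched for 7 of the 10 genes, all but Fgfr1, Fgf15 and Etv4, and 6 of their 9 windows held the motif on either strand. The motif is common, since 64.1% of all 32851 windows of the same length held it.

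The libraries were of like depth, with totals between 15907486 and 16282921 counts, and 15677 to 16296 genes had a count. Ybx1 itself was 1021, 528 and 1220 CPM in WT and 83.1, 117 and 147 CPM in cKO. CPM is the count per 1000000 counts of the library after TMM scaling, and values are given in the order of the replicate numbers throughout. Every cKO library was below every WT library, and WT replicate 2 lay between the groups' other samples. The labeled tissue carried its markers, with radial glia genes summing to 2727 to 3932 CPM and cortical neuron genes to 4949 to 6271 CPM in the 6 libraries. In cKO replicate 3 the 10 meninges and mesenchyme markers summed to 589 CPM against 9.60 to 17.9 CPM in the other 5 libraries, and the 8 epidermis markers to 273 CPM against 2.01 to 2.50 CPM. The 13 ventral forebrain markers summed to 124, 123 and 182 CPM in WT and to 194, 227 and 202 CPM in cKO, which did not overlap.

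No FGF receptor or feedback gene passed the adjusted test, and log2 fold changes of cKO over WT lay between -0.20 for Fgfr3 and 0.34 for Spry2. edgeR's quasi-likelihood test called 0 of the 10 at an adjusted p under 0.05, each with an adjusted p of 0.99995. The background was 0% of all tested genes higher and 0% lower. Even Ybx1, the deleted gene, did not reach this threshold: its cKO over WT ratio was 0.125, yet edgeR's adjusted p was 0.128. The absence of calls therefore does not show that levels were unchanged. At an unadjusted p under 0.05, only Spry2 of the 10 was past the threshold, higher in cKO, where the background was 1.75% of genes higher and 1.81% lower, 3.57% in all. Of the 10, 6 had a positive and 4 a negative fold change, and their median log2 fold change of 0.05 lay near the 0.0019 of all tested genes. The cKO libraries were all above the WT libraries for 1 gene, Spry2, and all below for 1 gene, Fgfr3, where the background was 4.21% of genes above and 4.83% below, 9.04% in all. In bulk tissue, fewer cells of a type and less RNA per cell cannot be told apart.

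**Figure D1:**
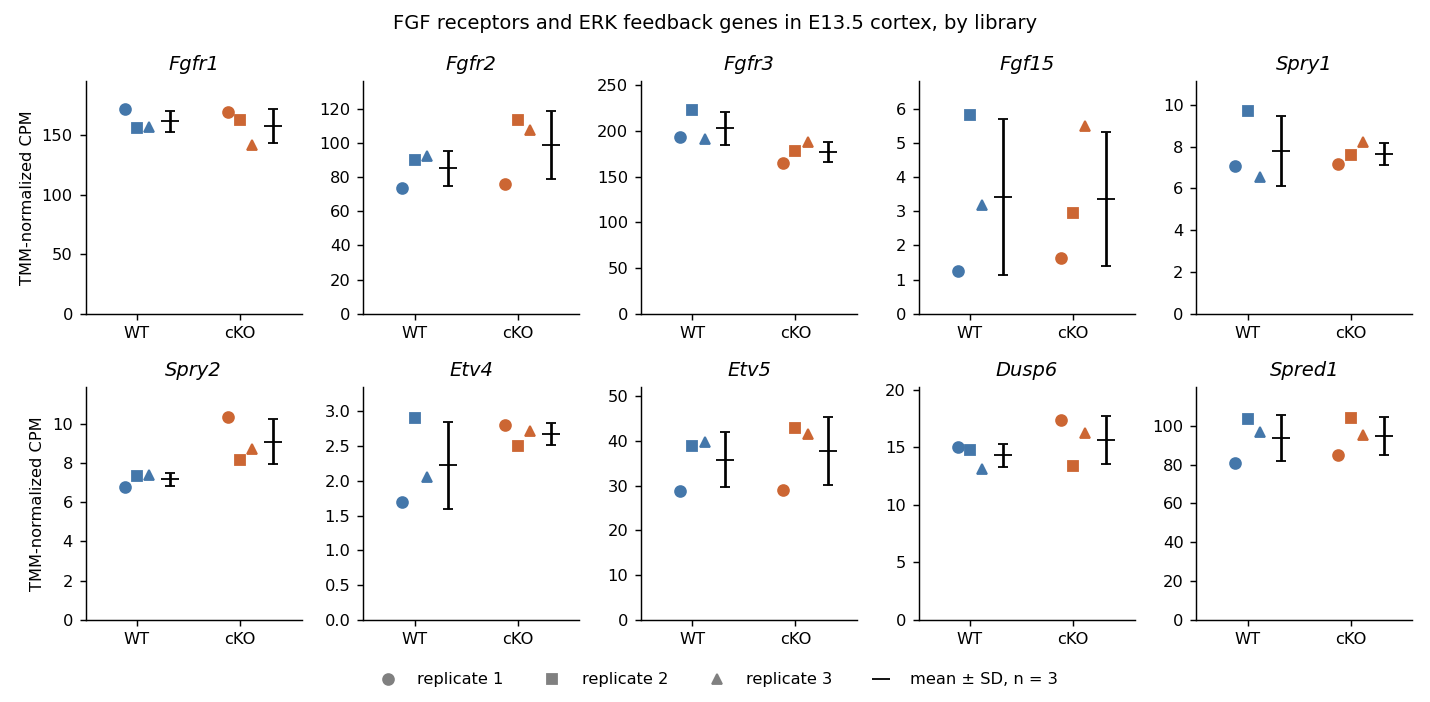
TMM-normalized CPM (vertical axis, from 0) of each gene in the 3 WT and 3 cKO libraries, with symbols for the replicate number and black bars for the mean ± SD. The points of the genotypes are separate only for Spry2 and Fgfr3, and Fgf15 spreads from 1.26 to 5.82 CPM.

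Compared per length of transcript (TPM), the 3 receptors were the most abundant of the 10. Fgfr3 led with 103 ± 9.32 TPM (SD over the 6 libraries), followed by Fgfr1 with 71.0 ± 6.65 TPM and Fgfr2 with 40.6 ± 6.25 TPM. Their ranges did not overlap with each other. Spred1 came next with 33.1 ± 2.26 TPM and Etv5 with 21.7 ± 3.12 TPM. The range of Spred1, 29.9 to 35.7 TPM, overlapped with that of Fgfr2, 34.1 to 48.3 TPM, and Etv5 was below both. Dusp6 at 12.5 ± 1.72 TPM, Spry2 at 9.22 ± 1.56 TPM and Spry1 at 8.10 ± 1.12 TPM formed a chain in which each overlapped with its neighbor. The lowest levels were those of Fgf15 at 4.60 ± 2.53 TPM and Etv4 at 2.58 ± 0.487 TPM, which overlapped as well. In these libraries Fgfr3 was higher than 89.6% of all genes in the table, and Etv4 than 32.9%.

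**Figure D2:**
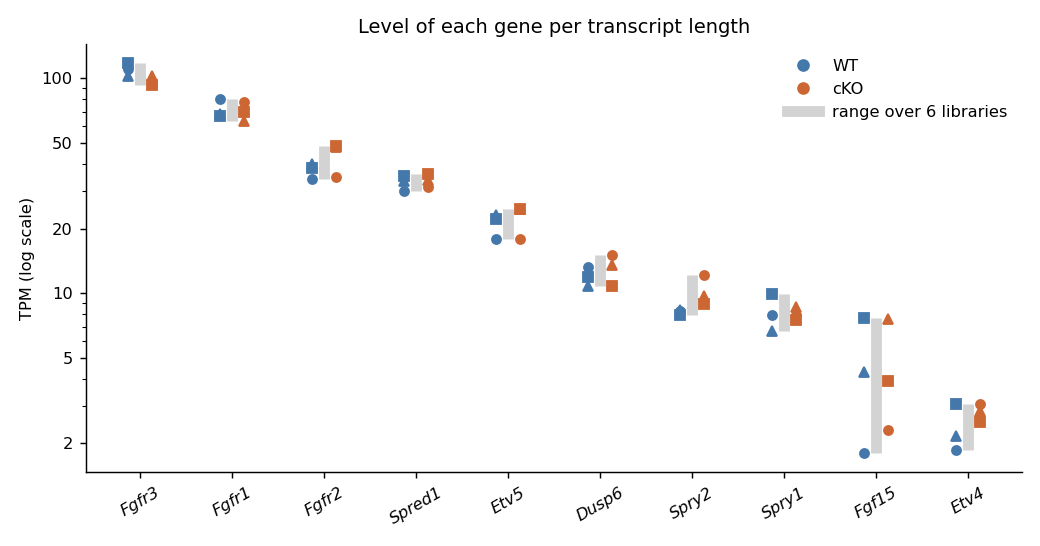
Level of each gene in TPM (vertical axis, log scale), in order of the mean, with WT and cKO libraries side by side and the range over all 6 libraries in gray. Fgfr3, Fgfr1 and Fgfr2 form separate steps at the top, and the genes from Dusp6 down overlap with their neighbors.

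Of the receptors, Fgfr1, which is expressed broadly in the telencephalon, varied least. Its values were 172, 156 and 157 CPM in WT and 169, 163 and 142 CPM in cKO. The lowest was cKO replicate 3, and the other 5 libraries of both genotypes lay together between 156 and 172 CPM. The log2 fold change was -0.03 with a standard error of 0.09 and a 95% interval of -0.23 to 0.16. For Fgfr2, which with Fgfr1 supports progenitor proliferation, the values were 73.5, 90.0 and 92.1 CPM in WT and 75.8, 113 and 107 CPM in cKO. Both replicate 1 libraries were the low ones, and cKO replicates 2 and 3 were above all WT libraries. The log2 fold change of Fgfr2 was 0.21 ± 0.16 (SE), with an interval of -0.15 to 0.57 (edgeR unadjusted p = 0.207). Leaving out cKO replicate 1 raised it to 0.38 (edgeR unadjusted p = 0.0075, adjusted p = 0.626), and the groups then no longer overlapped. That run kept the low WT replicate 1, and fewer libraries separate more easily. Over all genes it gave 571 higher and 482 lower at an unadjusted p under 0.05, against 234 and 242 with all libraries.

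Fgfr3, the receptor graded toward the caudal cortex, was 193, 223 and 191 CPM in WT and 165, 178 and 188 CPM in cKO. All cKO libraries were below all WT libraries, although WT replicate 3 and cKO replicate 3 were nearly level. The means were 203 ± 18.0 CPM in WT and 177 ± 11.4 CPM in cKO (SD, n = 3). Its log2 fold change was -0.20 ± 0.09 (SE), a ratio of 0.873 with a 95% interval of 0.760 to 1.004, and edgeR gave an unadjusted p of 0.0551. On the deposited TPM scale the separation was lost, since WT replicate 3 had 102.46 TPM and cKO replicate 3 had 102.64 TPM. Without WT replicate 2, the highest library and the WT library with the least Ybx1, the log2 fold change was -0.12. The unadjusted p of Fgfr3 was under 0.05 in 4 of 14 alternative analyses, and its direction was the same in all 14. The 5 caudal cortex markers summed to 1011 to 1113 CPM in WT and 953 to 1031 CPM in cKO. None of them passed the test in either direction, adjusted or not. For 1 of the 5, Nr2f1, all cKO libraries were below all WT libraries, where the background was 4.83% of genes below. Of the 5 fold changes, 3 were negative and 2 positive. The part of these markers in the Fgfr3 values was not tested.

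Fgf15, a ligand of the embryonic forebrain that is the mouse counterpart of human FGF19, varied more between libraries than any of the other 9 genes. It had 20, 94 and 51 counts in WT and 26, 47 and 91 counts in cKO, or 1.26, 5.82 and 3.19 CPM against 1.62, 2.95 and 5.49 CPM. Each genotype held a low, a middle and a high library, and the highest value was 4.64 times the lowest. The log2 fold change was -0.03 with a standard error of 0.57, and the 95% interval of -1.35 to 1.297 leaves room for a change of either sign. Its direction reversed in 7 of 14 alternative analyses. Both replicate 1 libraries were the low ones, as for Fgfr2.

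Spry2, a Sprouty inhibitor of receptor tyrosine kinase signaling, was the only gene of the 10 higher in every cKO library. It had 108, 118 and 118 counts in WT and 166, 130 and 144 in cKO, which is 6.78, 7.31 and 7.38 CPM against 10.4, 8.15 and 8.69 CPM. The WT libraries lay close together, and the cKO libraries were spread above them, with cKO replicate 1 highest. The means were 7.16 ± 0.324 CPM and 9.07 ± 1.15 CPM (SD, n = 3), a ratio of 1.27 with a 95% interval of 1.02 to 1.57. By edgeR the log2 fold change was 0.34 ± 0.14 (SE), with an unadjusted p of 0.0362 and an adjusted p of 0.99995, so the difference did not hold after correction for 13340 genes. It was 0.24 without cKO replicate 1 and 0.37 without cKO replicate 3, the library with mesenchyme and epidermis transcripts. The unadjusted p rose above 0.05 when any WT library or cKO replicate 1 was left out (0.0696 to 0.116) and in DESeq2 (0.0736) and limma on log2(TPM + 1) (0.0574). The summed CPM of the ventral forebrain markers was also higher in every cKO library than in every WT library. Of the 10 tested markers, 10 had a positive fold change and 5 an edgeR unadjusted p under 0.05. For 3 of them all cKO libraries were above all WT libraries. The part of these markers in the Spry2 values was not tested.

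Spry1, its close relative, did not follow it. Its values were 7.10, 9.73 and 6.56 CPM in WT and 7.18, 7.59 and 8.20 CPM in cKO. The cKO libraries lay within the range of the WT libraries, and the log2 fold change was -0.03 ± 0.17 (SE). Spred1, an inhibitor that acts with neurofibromin on RAS, was 80.7, 104 and 96.6 CPM in WT and 84.8, 104 and 95.4 CPM in cKO. Same-numbered libraries were close to each other in both genotypes, and the log2 fold change was 0.02 with a 95% interval of -0.24 to 0.28.

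Dusp6, the ERK phosphatase, was 15.0, 14.7 and 13.1 CPM in WT and 17.4, 13.4 and 16.2 CPM in cKO. Here cKO replicates 1 and 3 exceeded all WT libraries while cKO replicate 2 fell among them, and the log2 fold change was 0.13 ± 0.12 (SE; 95% interval -0.16 to 0.42). Etv4, an ETS factor at 27 to 47 counts per library, was 1.70, 2.91 and 2.06 CPM in WT and 2.81, 2.51 and 2.71 CPM in cKO. The cKO values were narrow and lay inside the wide WT range. The log2 fold change of Etv4 was 0.27 ± 0.25 (SE), with an interval of -0.30 to 0.84. Etv5, the more abundant ETS factor, was 28.8, 38.9 and 39.8 CPM in WT and 29.1, 42.8 and 41.6 CPM in cKO. Replicate 1 was low in both genotypes, and the log2 fold change of 0.08 ± 0.18 (SE) was smaller than its error.

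**Figure D3:**
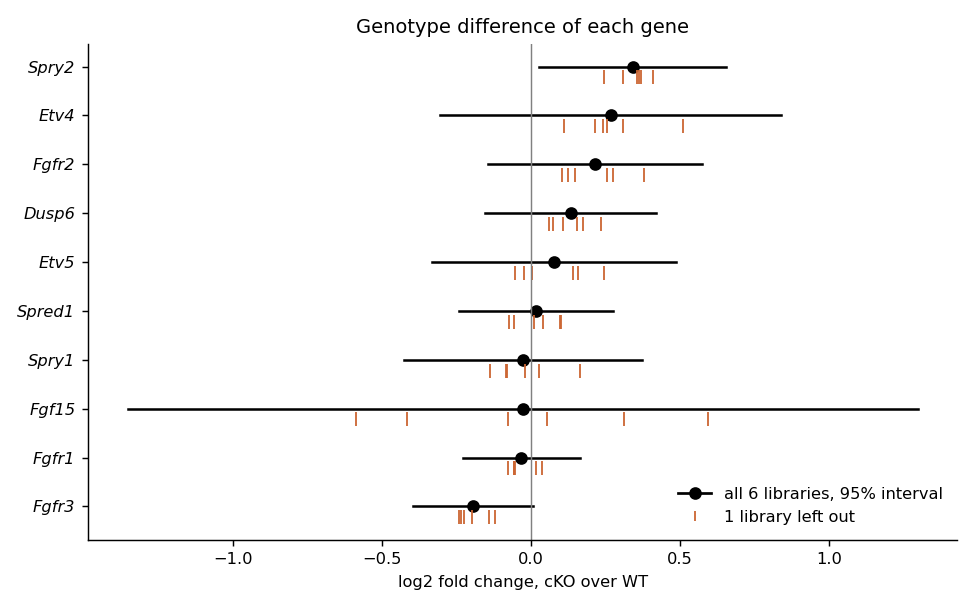
Log2 fold change of cKO over WT (horizontal axis) for each gene, with the 95% interval from all 6 libraries as a black line and the estimates with 1 library left out as orange ticks. The interval of Spry2 alone lies beyond 0, from 0.03 to 0.65, and that of Fgf15 is the widest, from -1.35 to 1.297.

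Several of these genes differed between libraries by replicate number in both genotypes, a pattern noticed after the values were seen. The 2 libraries of replicate 1 were the lowest pair for 4 of the 10 genes, Fgfr2, Fgf15, Etv5 and Spred1, and the highest pair for 1, Fgfr1. Over all tested genes they were the lowest pair for 20% and the highest pair for 20%. They were the lowest pair for 9 of the 13 radial glia markers and for 0 of the 10 cortical neuron markers. They were the highest pair for 9 of the 10 neuron markers and 0 of the radial glia markers. For the 7 markers of intermediate progenitors, which derive from radial glia, they were the lowest pair for 0 and the highest for 4. The radial glia markers summed to 2872 and 2727 CPM in the replicate 1 libraries and to 3455 to 3932 CPM in the other 4. The neuron markers summed to 6064 and 6271 CPM in the replicate 1 libraries and to 4949 to 5678 CPM in the others. The libraries also differed in the 4 Y-linked genes, which summed to 256 and 311 CPM in WT and cKO replicate 1 and to 261 CPM in cKO replicate 3, against 0.682 to 1.38 CPM in the other 3, so that 1 of 3 WT and 2 of 3 cKO libraries carried them. The part of tissue composition and of embryo sex in the values of Fgfr2, Fgf15, Etv5 and Spred1 was not tested. The study states that sequencing was done in 3 batches but the labels do not assign libraries to them, so no within-batch value is given.

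The closest match among the 10 genes was Fgfr2 with Etv5. Over the 6 libraries their deviations from their own mean log2 CPM differed by 0.0736 on average (mean absolute difference), while Fgfr2 itself ranged over 0.62 on the log2 scale. Spry2 was nearest to Dusp6, at a mean difference of 0.126, which was not particular to this pair. Spred1 was nearest to Etv5 at 0.113, Fgfr3 to Spred1 at 0.116 and Spry1 to Fgfr3 at 0.126. The share of all tested genes that lie as close was not counted. Among all tested genes, those nearest to Fgf15 were Cntn6 at 0.113, Aldh3b1 at 0.290 and Maob at 0.294, all of few counts. For Etv4 they were Hint2 at 0.0616, Gm2026 at 0.0646 and Adora2a at 0.0703, and for Fgfr2 they were Slc25a13 at 0.0362, Galk1 at 0.0383 and Lmcd1 at 0.0385.

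**Figure D4:**
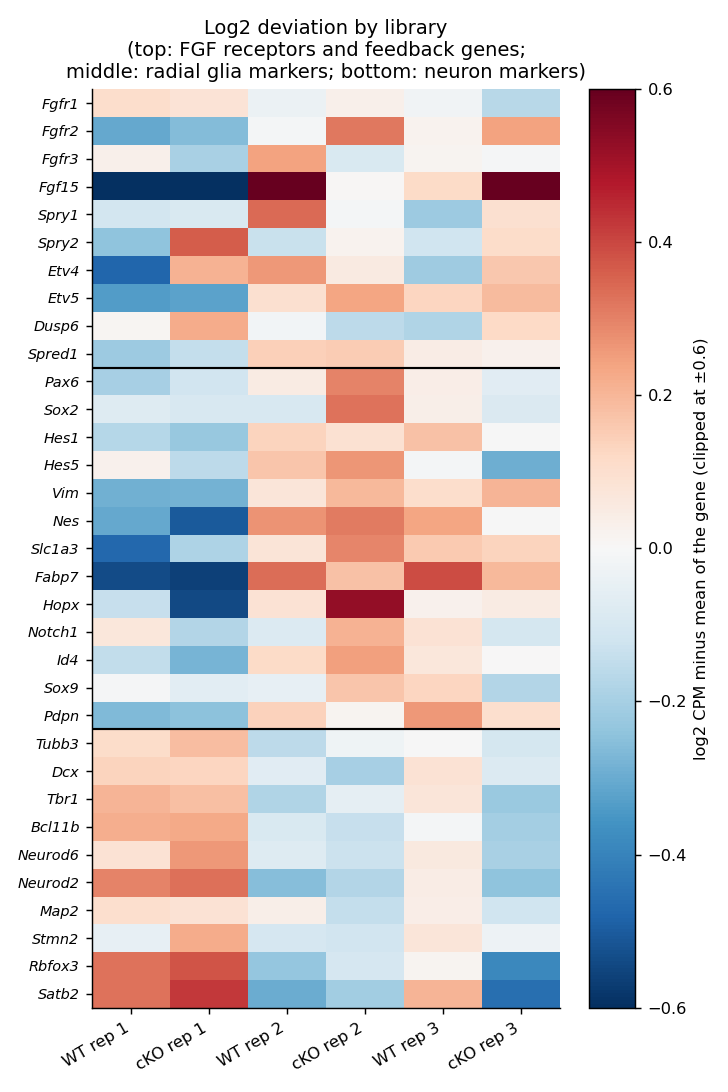
Log2 CPM minus the mean of each gene over the 6 libraries (color, clipped at ±0.6) for the 10 genes, the 13 radial glia markers and the 10 neuron markers, with same-numbered WT and cKO libraries side by side. Replicate 1 of both genotypes is blue for most radial glia markers and for Fgfr2, Fgf15, Etv5 and Spred1, and red for most neuron markers.

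The rest of the pathway gave no call either. Of 93 other FGF and ERK pathway genes, 90 were in the table and 72 could be tested. None passed an adjusted p under 0.05 in edgeR, and at an unadjusted p under 0.05 there were 0 higher and 2 lower, Cbl and Elk4, where the background was 1.75% of all tested genes higher and 1.81% lower. Their median log2 fold change was 0.02. The cKO libraries were all above the WT libraries for 3 of the 72 and all below for 3, named here after their values were seen: Sos2, Shc1 and Dusp7 above, and Cbl, Gab1 and Elk4 below. Over all tested genes 4.21% were above and 4.83% below, so these shares are near the background. Cbl, a ubiquitin ligase that removes activated receptors from the surface, was 217, 205 and 209 CPM in WT and 184, 183 and 166 CPM in cKO. All cKO libraries were lower, at a log2 fold change of -0.24 ± 0.07 (SE; edgeR unadjusted p = 0.00847, adjusted p = 0.99995). Elk4, an ETS factor of the ternary complex that ERK phosphorylates, was 12.8, 11.8 and 14.3 CPM in WT and 8.86, 11.04 and 10.6 CPM in cKO. Its libraries did not overlap either, and the log2 fold change was -0.35 ± 0.13 (SE; unadjusted p = 0.0280).

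Among the other secreted ligands, 4 of the 14 in the table could be tested. Fgf8, the patterning ligand of the rostral midline, had 1 count in WT replicate 2 and 0 in the other 5 libraries, where 3 counts, the floor set here, would be 0.181 to 0.188 CPM. Fgf17, a ligand of the same subfamily as Fgf8 and Fgf18, was 1.07, 2.97 and 0.50 CPM in WT and 1.81, 2.63 and 0.78 CPM in cKO. Fgf18 was 2.07, 2.35 and 2.0 CPM in WT and 2.62, 1.32 and 2.23 CPM in cKO, and Fgf17 and Fgf18 both overlapped between genotypes. Fgf9 had 5 to 11 counts and Fgf10, a ligand of early radial glia, 2 to 8 counts per library, too few to be tested. Fgf2, an ERK-activating mitogen of cultured neural stem cells, had a log2 fold change of 0.10 ± 0.23 (SE).

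No other receptor, adaptor or kinase gene of the list passed the adjusted test. Fgfr4 had 2 to 9 counts per library and was not tested, and the decoy receptor Fgfrl1 had a log2 fold change of 0.06 ± 0.14 (SE). Frs2, the docking protein of FGF receptors, had one of 0.03 ± 0.06. Mapk3, which encodes an ERK kinase, had one of 0.10 ± 0.09. Across the 18 genes of RAS, RAF, MEK and ERK, log2 fold changes lay between -0.12 and 0.17, and none reached an unadjusted p under 0.05. Of the other feedback and induced genes, 12 of the 23 tested were positive and 11 negative. The inhibitors Spry4, Spred2, Il17rd and Dusp4 had log2 fold changes of -0.32 ± 0.33, -0.01 ± 0.11, -0.02 ± 0.16 and -0.14 ± 0.09. The transcription factor genes Etv1 and Egr1 had ones of 0.12 ± 0.23 and 0.46 ± 0.72, and Fos, the immediate early gene, had 4 to 10 counts per library and was not tested.

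**Figure D5:**
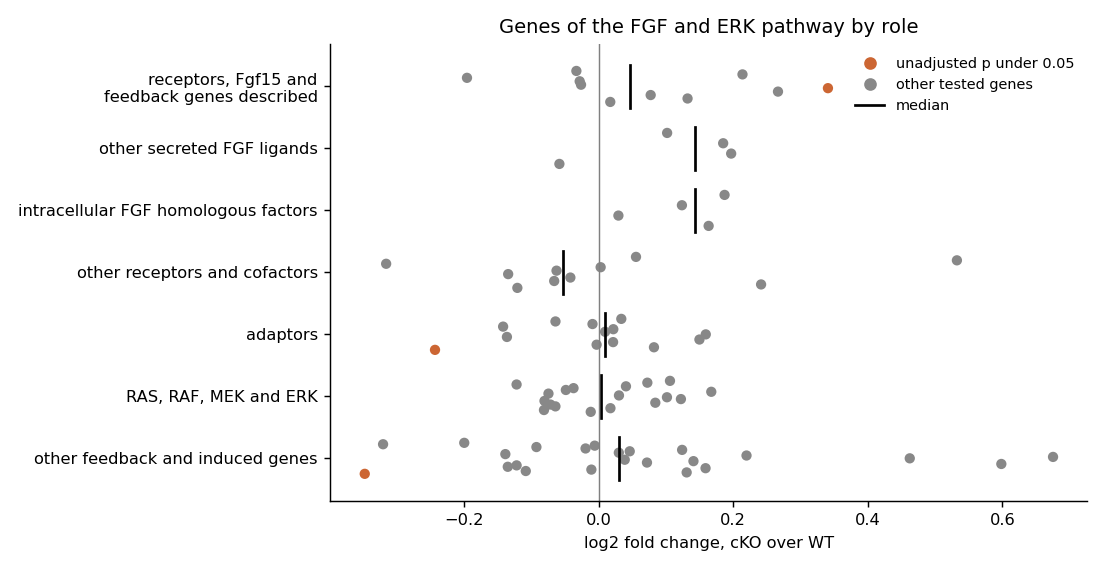
Log2 fold change of cKO over WT (horizontal axis) of each tested gene in the pathway, by role, with the median of each group as a black line and genes at an unadjusted p under 0.05 in orange. The orange points are Spry2 in the top row, Cbl among the adaptors and Elk4 among the induced genes, and the group medians lie between -0.05 and 0.14.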

How the data were processed

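RNA-seq of E13.5 cortex was analyzed for 3 WT and 3 cKO libraries, with groups and replicate numbers taken from the sample titles. Total RNA had been extracted with Trizol and sequenced as mRNA libraries on a DNBSEQ platform. The submitters' processing notes name HISAT2 2.2.1, Bowtie2 2.4.5 and RSEM 1.3.1 and the builds GRCm38 and mm10, with no role given. The authors deposited estimated counts that were not scaled for depth, of which 10.9% were not whole. The authors also deposited TPM, in which transcript shares sum alike in each library, and FPKM. The FPKM that the authors deposited served only as an alternative for the order of levels. Another 6 columns, the authors' group averages, were not used.

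Counts were rounded, and filterByExpr (minimum count 10, minimum total 15) left 13340 genes. TMM factors were 0.987 to 1.03. The main test was edgeR's quasi-likelihood test (edgeR 4.0.16, R 4.3.3; two-sided) with genotype as the only term and Benjamini-Hochberg adjustment over all 13340 genes at 0.05. Intervals are 95% intervals from its standard errors. The script was tested on simulated counts. An exact permutation test of 3 against 3 cannot go below 0.1.

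All 10 genes are named, together with Ybx1, a fixed list of pathway genes, up to 8 other pathway genes at an unadjusted p under 0.05, and the 3 genes nearest in pattern to each of the 3 genes of largest range. Of the fixed list, 1 gene enters the counts and is not reported here. The genes and lists were chosen with earlier results of these data known. Alternatives were DESeq2 1.42.0, RLE factors, a minimum of 10 counts per library, no filter, limma on log2(TPM + 1) (limma 3.58.1), limma-voom, a replicate block, each library left out, and WT replicate 2 with cKO replicate 3 left out.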

Additional observations from a re-analysis of the deposited data

How the results depend on the processing

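Adjusted for all genes, 0 of the 10 genes and 0 pathway genes were called in every alternative run, and the lowest adjusted p of the 10 was 0.565. Of 140 re-estimated fold changes (14 alternatives of 10 genes), 123 kept their direction. Fgfr2, Fgfr3, Spry2, Etv4 and Dusp6 kept it in all 14, at 0.10 to 0.38, -0.24 to -0.12, 0.24 to 0.41, 0.11 to 0.51 and 0.06 to 0.23 (log2). The log2 fold change of Fgf15 reversed to 0.059 in limma-voom, 0.033 on log2(TPM + 1), 0.024 with the replicate block and 0.039 without both WT replicate 2 and cKO replicate 3, where Fgfr1 became 0.013 and Spry1 0.11. With 1 library left out, it ranged from -0.59 to 0.59 for Fgf15, -0.077 to 0.038 for Fgfr1, -0.14 to 0.16 for Spry1, -0.053 to 0.24 for Etv5 and -0.075 to 0.10 for Spred1.

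At an unadjusted p under 0.05, the 10 genes gave 1 in the main analysis, 2 with no filter (Spry2 and Fgfr3), 0 in DESeq2, 0 without both libraries and 0 to 2 with 1 library left out: 0 without WT replicate 1, 2 or 3, and 2 without cKO replicate 3. The pathway genes gave 2 of 72, against 4 with RLE or with at least 10 counts in every library. With 1 left out, they gave 1 (without WT replicate 3) to 5 (without cKO replicate 1). Genes without overlap numbered 2, but 1 on TPM and 4 without both libraries, and 2 to 4 with 1 library left out: without WT replicate 2 Spry1 and Etv4 joined, and without cKO replicate 1 Fgfr2 and Etv5. The share of all genes without overlap was not counted in these runs. Groups of fewer libraries separate more often by chance, so the rise cannot be read as a result about these genes. Over all genes, 0 were called, against 4 in DESeq2, 2 without both libraries and 0 to 2 (without WT replicate 2) with 1 left out. The study reported upregulated and downregulated genes at E13.5. Its text names no test or threshold for them, so the counts cannot be compared. Unadjusted, 234 were higher and 242 lower in cKO, against 240 and 240 with RLE and 228 and 234 with the 10-count minimum. There were 390 higher with no filter, 148 higher in DESeq2, and 105 higher and 141 lower without both libraries. With 1 left out, 121 to 571 were higher and 118 to 482 lower, lowest and highest in the same runs as the pathway genes. The cause was not tested.

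Deviations of same-numbered libraries correlated across genes at 0.406 and 0.31 for replicates 1 and 2 and at -0.02 for replicate 3. No label gives a pairing, so the main test had none, although replicates 1 and 2 shared part of their deviations. A replicate block lowered the standard error from 0.156 to 0.066 for Fgfr2 and from 0.177 to 0.067 for Etv5. It raised that of Spry2 from 0.135 to 0.141 and that of Etv4 from 0.247 to 0.257. With the replicate block, 2 genes were called, 476 were higher and 614 lower unadjusted, 10 pathway genes were past the unadjusted threshold, and 3 of the 10 were: Fgfr2, Fgfr3 and Spry2, with adjusted p of 0.565, 0.569 and 0.609 in edgeR. The order of levels was the same on FPKM and on log2(TPM + 1) and log2(TPM + 0.1). Depth limits Fgf15 and Etv4 most, with 20 to 94 counts per library.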

Other observations

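The makeup of the 3 receptors was examined after their values were seen. Fgfr3 made up 49.2%, 52.8% and 48.6% of the summed TPM of Fgfr1, Fgfr2 and Fgfr3 in the WT libraries and 45.6%, 44.0% and 48.0% in the cKO libraries. All cKO libraries were below all WT libraries, although cKO replicate 3 came close to WT replicate 3, and the means were 50.2% ± 2.26 and 45.9% ± 2.0 (SD, n = 3). The exact two-sided permutation test gave p = 0.1, the smallest that 3 against 3 libraries allow, before any adjustment for the 4 values compared. In TPM itself Fgfr3 overlapped, at 102.46 in WT replicate 3 and 102.64 in cKO replicate 3. The receptor sums of these libraries were 210.89 and 213.78 TPM. The shares are parts of the same sum, so they are not separate observations. The share of Fgfr2 was 15.2%, 17.3% and 18.9% in WT and 16.8%, 22.9% and 22.5% in cKO, where 2 cKO libraries exceeded all WT libraries and cKO replicate 1 did not (exact permutation p = 0.3). Fgfr1 took 29.9% to 35.6% in WT and 29.5% to 37.6% in cKO. The summed level of the 3 receptors was 219 ± 7.45 TPM in WT and 211 ± 3.38 TPM in cKO and overlapped between genotypes.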
